A study of Mus musculus with 2 samples.

Results

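A set of 8 microRNA genes known from microglia, blood leukocytes and inflammation was examined in male B6CASTF1/J mice, first-generation hybrids of the B6 and CAST strains, whose left cerebral cortex was taken at 36 days. The genes were Mir142, Mir142b, Mir223, Mir155, Mir146, Mir146b, Mir150 and Mir21a, 8 of the 2202 microRNA genes counted, chosen by symbol in the GENCODE M21 annotation, where Mir146 is the gene of miR-146a. The libraries formed 1 group with no treatment or mutation in the labels: replicate 2 came from animal 4 and replicate 1 from animal 3, both bulk tissue with RNA of under 30 bases as the labelled size range. The labels give both animals the same donor identifier, and with 1 library each, tests between them cover counting error and compare these libraries, not conditions.

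MicroRNAs are short RNAs that are cut from hairpin transcripts and direct the silencing complex to messenger RNAs, chiefly through bases 2 to 8, the seed. miR-142 is made across blood cell lineages, miR-223 in granulocytes and other myeloid cells, and miR-150 in mature lymphocytes. miR-155 and miR-146a are induced when Toll-like receptors activate macrophages and microglia: miR-155 lowers the phosphatase Ship1 and the cytokine-signalling inhibitor Socs1, while miR-146a lowers the receptor adaptors Traf6 and Irak1 and so dampens NF-kB signalling. miR-21, which lowers the translation inhibitor Pdcd4, is induced in inflammation but is also made by many cell types outside the blood.

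RefSeq (GRCm38.p6) held 14 mature sequences for the 8 genes. Those shown first are the arms usually studied, except for Mir150, whose 3p arm is shown; capitals mark the seed. The counts are per gene and do not say which arm was read.
miR-142a-3p: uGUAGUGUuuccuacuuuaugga
miR-142b: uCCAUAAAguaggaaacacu
miR-223-3p: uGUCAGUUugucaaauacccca
miR-155-5p: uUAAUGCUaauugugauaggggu
miR-146a-5p: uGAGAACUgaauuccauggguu
miR-146b-5p: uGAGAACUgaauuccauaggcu
miR-150-3p: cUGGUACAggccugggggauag
miR-21a-5p: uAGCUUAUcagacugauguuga
Among the 13 seeds of these 14 sequences, 1 was shared within the set, by miR-146a-5p and miR-146b-5p. Outside the set the table gave 1 relative with a shared seed, miR-21c, and its gene Mir21c had 0 counts in replicate 2 and 0 in replicate 1. The sequences used held no 5p arm for Mir150, so genes sharing the seed of that arm were not sought.

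The miR-146 pair is shown again because its genes had very unequal counts although the mature sequences are nearly alike; here capitals mark the bases that differ, G18A and U21C, counted from the 5′ end with the base of miR-146a-5p first.
miR-146b-5p: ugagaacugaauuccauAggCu
miR-146a-5p: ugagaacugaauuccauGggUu
The first 17 of 22 bases are the same, and the longest stretch that the annotated hairpins share is 21 bases. In the whole set, only Mir142 and Mir142b, which overlap, share a stretch of 22 bases with another annotated microRNA hairpin.

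The libraries held 11534730 reads (replicate 2) and 11886775 reads (replicate 1), of which 4010274 and 4273791 were assigned to microRNA genes on their own strand. Levels are CPM, these assigned reads scaled to the same total in each library. Where no read was counted, the level could still be as high as 0.748 CPM (replicate 2) or 0.702 CPM (replicate 1). Multi-mapped reads, 39.9% and 42.8% of all reads, are in no gene's count. Of 11 neuronal genes 8 were detected, with Mir132, induced by neuronal activity, at 30022 CPM (replicate 2) and 54937 CPM (replicate 1), and Mir128-1 at 6096 CPM (replicate 2) and 12978 CPM (replicate 1). The 3 not detected were the Mir124a genes, whose microRNA is a defining one of neurons. Mir124a-1 had 15 counts in replicate 2 and 10 in replicate 1, Mir124a-3 had 4 in replicate 2 and 20 in replicate 1, and Mir124a-2 had 0 in each. These counts leave out multi-mapped reads, and how many of those came from the Mir124a genes was not tested. The level of their microRNA in the cortex can therefore not be read from them. The tables hold no protein-coding genes, so microglia and leukocytes could not be checked by their usual messenger RNA markers.

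Mir150, Mir21a, Mir146, Mir155 and Mir142 reached 10 CPM in each library and are called detected, 5 of the 8, where 13.6% of all microRNA genes were. Together the 8 genes gave 2459 CPM (replicate 2) and 4183 CPM (replicate 1), or 0.332% ± 0.122 of the assigned reads (SD, n = 2). Mir150, Mir146 and Mir21a made up nearly all of it, 2343 CPM (replicate 2) and 4059 CPM (replicate 1). In bulk tissue, fewer cells of a type and less RNA per cell cannot be told apart.

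**Figure D1:**
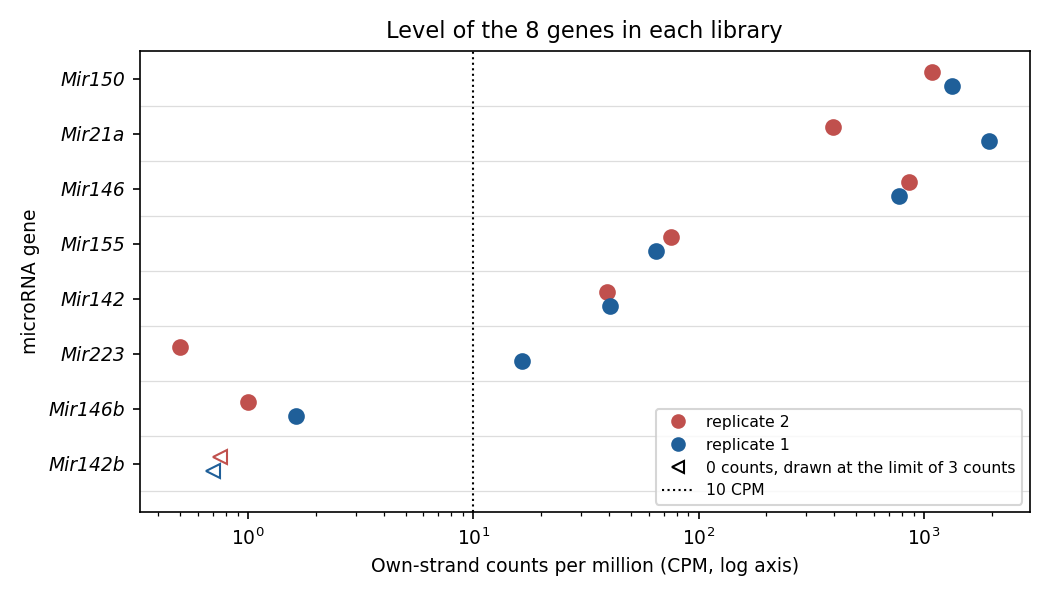
CPM of each of the 8 genes (horizontal log axis), with a point for replicate 2 above a point for replicate 1 and a dotted line at 10 CPM; open triangles stand for 0 counts, drawn at the limit of 3 counts. Mir150, Mir21a and Mir146 lie between 394 and 1953 CPM, Mir155 and Mir142 between 39.1 and 75.8 CPM, and Mir223 crosses the line between the libraries.

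Mir150, whose microRNA is known from mature lymphocytes, had 4377 counts in replicate 2 and 5700 in replicate 1, or 1091 and 1334 CPM. Its mean of 1213 ± 171 CPM (SD, n = 2) placed it at rank 88 of 2202. The gene lies on chromosome 7 (45121757 to 45121821, plus strand, mm10), between annotated genes. Its share of the summed level was 44.4% in replicate 2 and 31.9% in replicate 1. Which cells of the cortex gave the reads of Mir150 was not tested.

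Mir142, the general blood-cell gene, was far lower. It had 157 counts in replicate 2 and 173 in replicate 1, or 39.1 and 40.5 CPM (mean 39.8 ± 0.940, SD, n = 2; rank 245). The libraries were closer for it than for any other of the 5 detected genes. Within replicate 2, Mir150 had 27.9 times the counts of Mir142 (exact 95% interval 23.8 to 32.9), and within replicate 1, 32.9 times (28.3 to 38.6). These intervals overlap.

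Mir223, the myeloid gene on chromosome X (96242817 to 96242926, plus strand, in an exon of the transcript F630028O10Rik), had 2 counts in replicate 2 and 70 in replicate 1, or 0.499 and 16.4 CPM. Replicate 2 therefore lay below the limit that a count of 0 allows, and Mir223 counts as detected in replicate 1 alone. Per count of Mir142, Mir223 had 0.0127 in replicate 2 (0.00153 to 0.0468) and 0.405 in replicate 1 (0.302 to 0.537). The ratio is independent of how the libraries are scaled, and its intervals do not overlap.

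Mir146 and Mir155, the genes of the Toll-like receptor response, stood at unlike levels that differed little between the libraries. Mir146, between annotated genes on chromosome 11 (43374397 to 43374461, minus strand), had 3440 counts in replicate 2 and 3304 in replicate 1, or 858 and 773 CPM (mean 815 ± 59.9, SD, n = 2; rank 107). Mir155, in an exon of its host transcript Mir155hg on chromosome 16 (84714140 to 84714204, plus strand), had 304 counts in replicate 2 and 277 in replicate 1, or 75.8 and 64.8 CPM (mean 70.3 ± 7.77, SD, n = 2; rank 218). Per count of Mir146, Mir155 had 0.0884 in replicate 2 (0.0783 to 0.0994) and 0.0838 in replicate 1 (0.0739 to 0.0948), intervals that overlap.

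Mir146b, in an intron of Mfsd13a on chromosome 19 (46342762 to 46342870, plus strand), had 4 counts in replicate 2 and 7 in replicate 1, or 0.997 and 1.64 CPM. It gave 0.116% of the counts of the miR-146 pair in replicate 2 (exact binomial 95% interval 0.0317 to 0.297) and 0.211% in replicate 1 (0.0850 to 0.435). The pair thus shares its seed, but nearly all assigned reads lay at Mir146 in both libraries. Reads that end before the differing bases fit both genes, and how many were left out for this was not tested.

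Mir21a, which overlaps an exon of Vmp1 on chromosome 11 (86584067 to 86584158, minus strand), had 1579 counts in replicate 2 and 8345 in replicate 1, or 394 and 1953 CPM. Its mean, 1173 ± 1102 CPM (SD, n = 2), has an SD close to its own size. It ranked 134 in replicate 2 and 70 in replicate 1, and gave 16.0% of the summed level of the 8 genes in replicate 2 and 46.7% in replicate 1. Without it, the other 7 genes summed to 2066 CPM (replicate 2) and 2230 CPM (replicate 1).

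By mean CPM the order was Mir150, Mir21a, Mir146, Mir155, Mir142, Mir223, Mir146b and Mir142b. The library values overlapped between Mir150 and Mir21a, between Mir21a and Mir146, and between Mir223 and Mir146b, and were apart for the other neighbours in the order. A read spans a whole mature microRNA, so CPM was not divided by gene length; per kilobase of hairpin, all 8 genes kept their places. The genes nearest to each detected gene in log2(CPM + 1) over the 2 libraries were Mir484 and Mir154 for Mir150, Mir195a and Mir140 for Mir21a, Mir666 and Mir467d for Mir146, Mir1188 and Mir135b for Mir155, and Mir449a and Mir25 for Mir142. Mir21a had the most distant neighbours, with Mir195a at 415 CPM (replicate 2) and 1387 CPM (replicate 1).

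At the Mir142 locus the strand of counting decided whether any reads were assigned. Mir142b is annotated on the opposite strand of Mir142 (chromosome 11, 87756841 to 87756955, minus strand) and contains all 64 bases of it (87756864 to 87756927, plus strand); Mir142 lies in an intron of the host transcript Mir142hg, and Mir142b opposite to it. The mature miR-142b is the exact reverse complement of bases 4 to 23 of miR-142a-3p, marked by capitals here to show why only the strand can separate their reads.
miR-142a-3p: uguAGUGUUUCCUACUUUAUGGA
On its own strand Mir142b had 0 counts in replicate 2 and 0 in replicate 1. Its opposite-strand counts, 157 and 173, were the own-strand counts of Mir142. The counts of Mir142 were 52.3 times a floor of 3 counts for Mir142b in replicate 2 and 57.7 times it in replicate 1. These ratios leave out the counting error of Mir142. In the unstranded column both genes had 0 counts in both libraries, since reads that fit overlapping genes are set aside there as ambiguous. For the other 6 genes, unstranded and own-strand counts differed by at most 1 read.

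**Figure D2:**
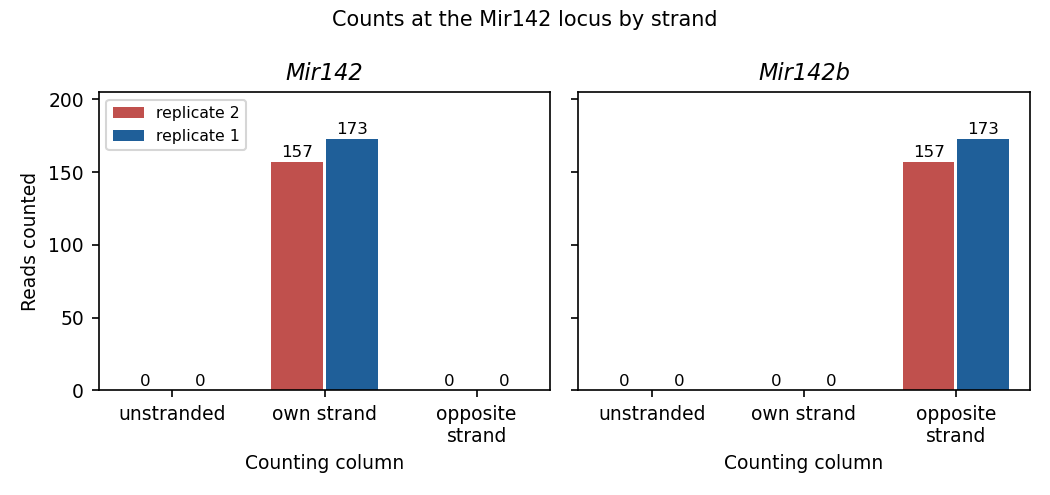
Reads counted at Mir142 (left) and Mir142b (right) in the unstranded, own-strand and opposite-strand columns, with a bar for replicate 2 left of a bar for replicate 1. All reads of the locus, 157 in replicate 2 and 173 in replicate 1, lie on the strand of Mir142, and the unstranded column has 0.

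Among the genes of the set, the libraries differed most at Mir223 and Mir21a. The exact two-sided binomial test, scaled by TMM (edgeR) and adjusted by Benjamini-Hochberg over the 516 genes with 10 or more counts, took in 7 of the 8 genes. It called 5 of them, beside 57.9% of all genes tested: 2 were higher in replicate 2, beside 27.5% of all genes, and 3 were lower, beside 30.4%. A call by itself therefore sets none of these genes apart from the rest. Where the log2 ratio also had to reach 1 in size, 2 were lower, beside 11.6% of all genes, and 0 were higher, beside 7.75%. The median log2 ratio was -0.25 over the 7 genes and -0.04 over all genes tested.

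Mir21a was 4.82-fold lower in replicate 2 (4.57 to 5.09, counting error), a log2 ratio of -2.27, the 18th lowest of 516, with a binomial adjusted p too small for the software to hold. Mir223 had a log2 ratio of -5.00 (-8.07 to -3.09), the 4th lowest, and an adjusted p of 8.31e-17 (exact binomial test), and reached the count minimum only through replicate 1. These tests leave out variation between animals, which 1 library per animal cannot give. Over all genes the libraries differed with a coefficient of variation of 43.7%. With that spread entered as dispersion in edgeR's exact test, 1.16% of all genes were called, but the spread comes from the same libraries, so the calls are no measure of variation between animals.

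Mir150 was lower in replicate 2 by the exact binomial test, with a log2 ratio of -0.25 (-0.31 to -0.19; adjusted p = 2.65e-17). Mir146 was higher, at 0.19 (0.12 to 0.26; adjusted p = 1.89e-07 by the exact binomial test). By the exact binomial test Mir155 was also higher, at 0.27 (0.03 to 0.51, adjusted p = 0.0481). With total counts it did not pass, with an adjusted p of 0.100 by the same exact binomial test. Over the recorded alternatives of this exact binomial test its adjusted p was 0.0238 to 0.214. edgeR's exact test called none of these 3 genes. All 3 ratios lay within the interquartile range of all genes tested, -0.56 to 0.53. Mir142 had a log2 ratio of -0.01 (-0.33 to 0.31) and Mir146b of -0.68 (-2.90 to 1.30), and neither passed.

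**Figure D3:**
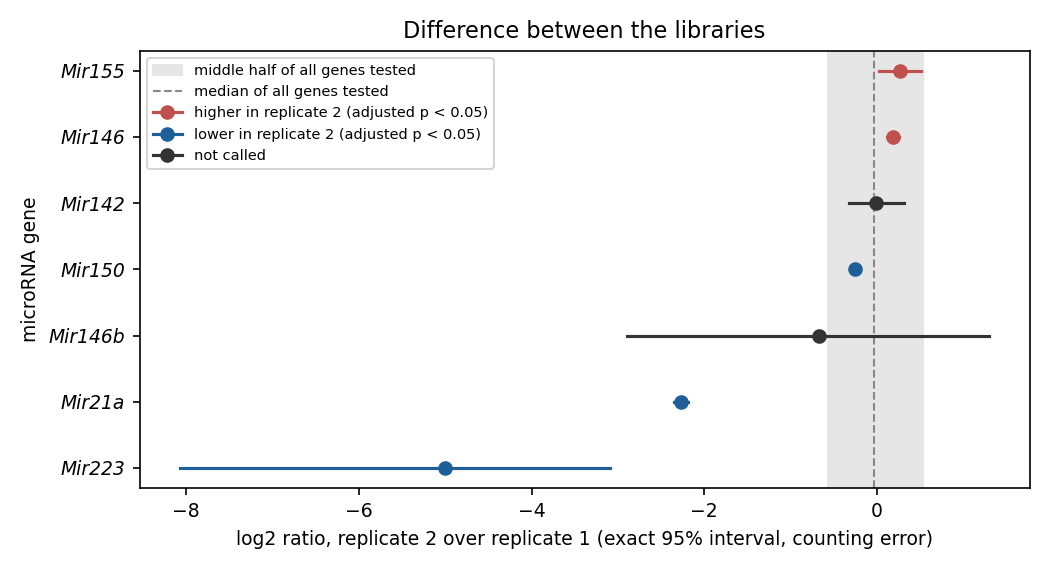
log2 ratio of replicate 2 over replicate 1 with its exact 95% interval for the 7 genes tested, ordered from high to low, with the interquartile range (grey) and median (dashed) of all 516 genes tested. Mir223 at -5.00 and Mir21a at -2.27 lie outside the grey band, Mir146b at -0.68 lies just outside it with an interval across it, and the other genes lie inside.

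**Figure D4:**
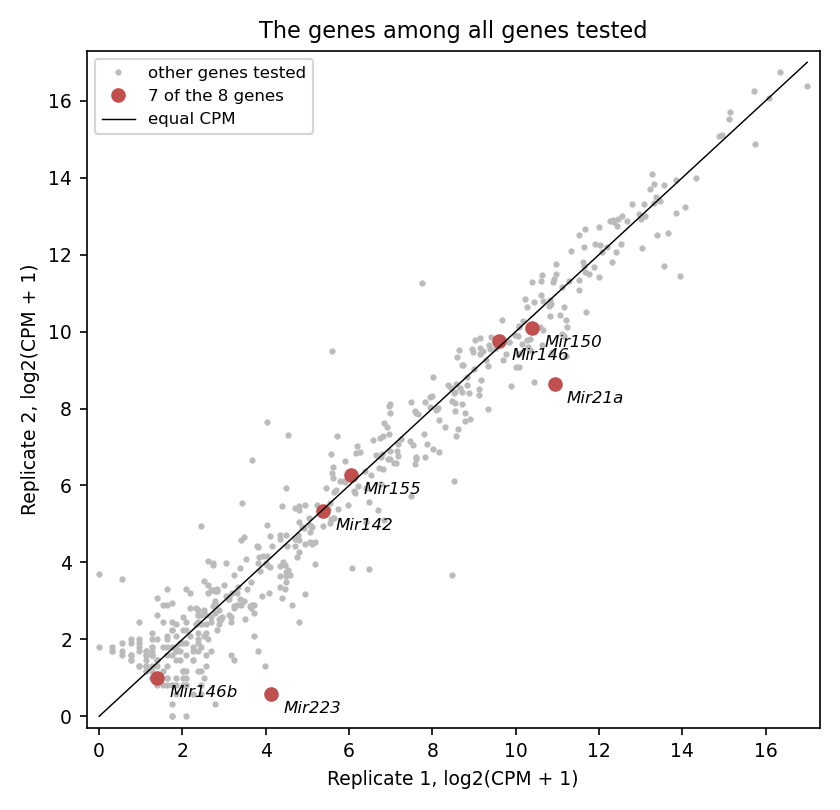
log2(CPM + 1) of the 516 genes tested with replicate 2 upward on the vertical axis and replicate 1 along the horizontal axis, with 7 of the 8 genes in red and a line of equal CPM. Mir150, Mir146, Mir155 and Mir142 lie close to the line, and Mir21a and Mir223 lie below it.

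Values of other blood and vessel genes are given beside these differences. Of the red-cell list, 4 of 5 symbols are in the annotation. The genes of these 4 symbols summed to 795 CPM (replicate 2) and 86.8 CPM (replicate 1), and none was at 0. By the exact binomial test 2 of the 4 were higher in replicate 2 and 1 lower, beside 27.5% and 30.4% of all genes tested. Mir451a, a microRNA of developing red cells, had 726 CPM (replicate 2) and 47.0 CPM (replicate 1), a log2 ratio of 3.99 (3.78 to 4.20). Mir144, its neighbour, had a log2 ratio of 2.26 (1.76 to 2.78). Mir486 had -0.18 (-0.59 to 0.23), and Mir3107 rested on 3 counts in replicate 2 and 14 in replicate 1. Counts of Mir486 and Mir3107 leave out multi-mapped reads, and how many of those came from either gene was not tested. Endothelial Mir126a, at 10799 CPM (replicate 2) and 11394 CPM (replicate 1), had a log2 ratio of -0.04 (-0.06 to -0.02). The genes of vessel mural cells went in opposite directions. Mir143 had a log2 ratio of 0.65 (0.63 to 0.68) and Mir145a of -0.42 (-0.55 to -0.29). The part of blood in the differences of Mir223 and Mir21a was not tested.

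Other genes linked to the same biology were described from lists taken from general knowledge. Their counts leave out multi-mapped reads, and how many of those came from these genes was not tested. Of 10 further genes linked to Toll-like receptors or NF-kB, 8 were detected, beside 13.6% of all genes. By the exact binomial test 3 of the 10 were higher in replicate 2, beside 27.5% of all genes tested, and 4 were lower, beside 30.4%, with a median log2 ratio of -0.15. They were led by Mir132 and by Mir221, which stood at 7687 CPM (replicate 2) and 5200 CPM (replicate 1). Mir147, which Toll-like receptor signalling induces in macrophages, had 4 counts in replicate 2 and 6 in replicate 1. Of 17 genes linked to leukocyte development, 14 were detected and 15 tested. Of these, 4 were higher and 10 lower, beside the same 27.5% and 30.4%, with a median log2 ratio of -0.36 against -0.04 for all genes tested. They were led by Mir125a, at 9714 CPM (replicate 2) and 17043 CPM (replicate 1), and by Mir126a. The median level of tested genes was 625 CPM in the first list and 328 CPM in the second, against 70.3 CPM for the 7 genes tested of the set and 29.2 CPM for all genes tested.

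**Figure D5:**
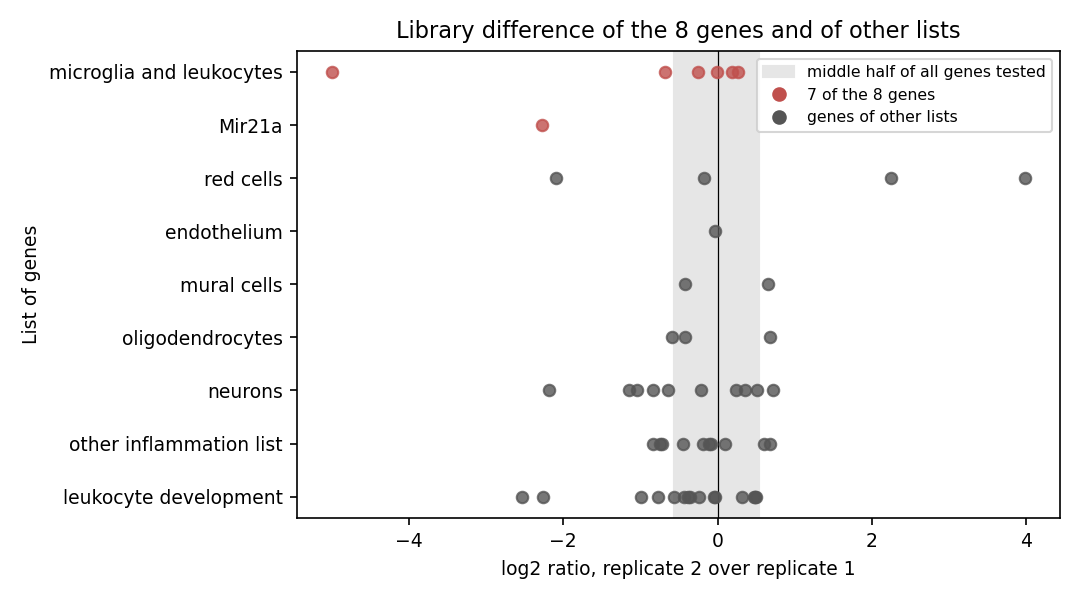
log2 ratio of replicate 2 over replicate 1 (horizontal axis) for each gene tested, by list (vertical axis, with Mir21a in a row of its own and 7 of the 8 genes in red), with the interquartile range of all genes tested in grey. Mir223 at -5.00 and Mir21a at -2.27 lie left of the band and Mir451a at 3.99 lies right of it. Genes of other lists lie about as far out as Mir21a. Among them are Mir181a-2 at -2.53 and Mir24-2 at -2.26 on the left and Mir144 at 2.26 on the right. Mir181a-2 rests on 18 counts in replicate 2 and 114 in replicate 1, and Mir24-2 on 54 and 284. These counts leave out multi-mapped reads.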

How the data were processed

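MicroRNA libraries of 2 animals of 1 group were analysed. The authors deposited raw counts per microRNA gene as whole numbers, in unstranded, own-strand and opposite-strand columns; the table has no header, and this reading of the columns rests on the values. Per the text files deposited beside the tables, reads were mapped to mm10 with annotation GENCODE M21; the aligner, counter, their versions and trimming: not given in the sources used here. Reads that name no gene (unmapped 20.9% in replicate 2 and 16.7% in replicate 1, multi-mapped 39.9% and 42.8%, outside microRNA genes 4.39% and 4.56%) stayed out of totals and tests.

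Own-strand counts were scaled to CPM. Library differences (replicate 2 over replicate 1) were assessed by a two-sided exact binomial test, with effective library sizes from TMM (edgeR 4.0.16 in R 4.3.3), for genes with 10 or more counts together, adjusted over all of them at a threshold of 0.05, with Clopper-Pearson 95% intervals. edgeR's exact test used the common dispersion of both libraries taken as 1 group. DESeq2 1.42.0 gave alternative size factors. The script was tested on simulated counts that held counting error only, with no further variation between libraries. Intervals and limits cover counting error only. Seeds, shared stretches and substitutions were computed from RefSeq and GENCODE sequences. Python 3.11.15, SciPy 1.17.1, NumPy 2.4.6, pandas 2.3.3 and Matplotlib 3.10.9 were used. Named were the 8 genes, genes sharing a seed, the 2 nearest genes in level and the 2 highest of each further list. Red-cell genes, the neuronal Mir132, Mir128-1 and Mir124a genes, Mir147, Mir181a-2 and Mir24-2 were added for what their sentences state. The genes and lists were chosen with earlier results of these data known.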

Additional observations from a re-analysis of the deposited data

Results flagged for a closer look

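Opposite-strand reads stood above the limit that a count of 0 allows at 1 of the 8 genes, in a column that the comparisons do not use. Mir142b had 157 opposite-strand counts in replicate 2 and 173 in replicate 1. The same numbers are the own-strand counts of Mir142, which lies on the other strand of the same bases.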

How the results depend on the processing

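In all, 2 genes were higher and 3 lower in replicate 2, beside 27.5% and 30.4% of all genes tested. With total counts, all reads, no minimum count, unstranded counts or TMM over genes with any count, 1 was higher in each, because Mir155 lost its call. The last of these settings was chosen after seeing the data. By the exact binomial test the adjusted p of Mir155 was 0.0705 to 0.214 in them, with no value recorded for no minimum count. Where the log2 ratio also had to reach 1 in size, 0 were higher, beside 7.75% of all genes tested. With edgeR's exact test (also chosen after seeing the data), 0 were higher and 1, Mir223, was lower. That test called 1.16% of all genes tested, in either direction. It gave 2 of the 7 genes an unadjusted p under 0.05, beside 26 of all 516 genes tested. Its dispersion comes from the same 2 libraries, so these counts show no variation between animals. With a minimum of 100 counts, Mir223 was not tested and 2 were lower. The log2 ratio of Mir142, never called, was 0.029 with DESeq2 size factors, against -0.0082. Under the other alternatives that tested them, Mir21a had log2 ratios of -2.36 to -2.23 and Mir223 of -5.09 to -4.92. At 100 CPM, 3 genes were detected in place of 5. The summed level was 2459 to 4183 CPM with 1 library left out. The counts of Mir146b, Mir142b and, in replicate 2, Mir223 are too few to show differences of moderate size. Both libraries form 1 group, so no paired analysis applies.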

Other observations

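The 3 most abundant of the 8 genes changed place between the libraries. Per count of Mir146, Mir150 had 1.27 in replicate 2 (exact 95% interval 1.22 to 1.33) and 1.73 in replicate 1 (1.65 to 1.80). Mir21a had 0.459 per count of Mir146 in replicate 2 (0.432 to 0.487) and 2.53 in replicate 1 (2.43 to 2.63), so that it was the lowest of the 3 in replicate 2 and the highest in replicate 1. Per count of Mir142, Mir21a had 10.1 in replicate 2 (8.53 to 11.9) and 48.2 in replicate 1 (41.5 to 56.4), and Mir155 had 1.94 in replicate 2 (1.59 to 2.36) and 1.60 in replicate 1 (1.32 to 1.95). These ratios need no scaling between libraries.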
